A study of Homo sapiens with 8 samples.

Results

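Cinobufagin moved 548 genes in opposite directions in the acute myeloid leukaemia lines HL60 and Kasumi-1. They were found among 12239 tested genes, of 25593 gene rows in all, by a test of the line-by-drug interaction. The interaction of a gene is its change in Kasumi-1 minus its change in HL60, where a change is treated minus untreated on the log2(FPKM + 1) scale. FPKM are fragments scaled by transcript length and by the number of mapped fragments. The tested genes had an FPKM of at least 1 in at least 2 libraries, and short RNAs and repeated symbols were left out. A gene is called opposite here when its change in each line had an adjusted p under 0.05, the signs differed and the interaction had an adjusted p under 0.05. Of the opposite genes, 284 rose in HL60 and fell in Kasumi-1, and 264 fell in HL60 and rose in Kasumi-1.

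RNA sequencing had been run on 8 libraries in 4 groups of 2. HL60 and Kasumi-1 cells were each grown without drug or with 100 nM cinobufagin for 24 h. HL60 is a promyelocytic line with MYC amplification, while Kasumi-1 came from a myeloblastic leukaemia with the RUNX1-RUNX1T1 fusion gene. HL60 was grown in 10% fetal bovine serum and Kasumi-1 in 20%, so line and serum cannot be told apart in any difference between the lines. Whether paired libraries stem from separate cultures is not stated; the p-values therefore reflect only how far these libraries differ, and that spread may be technical.

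Cinobufagin is a bufadienolide of toad venom. It inhibits the Na+/K+-ATPase, the pump that exports sodium and imports potassium, and a prolonged block changes the ion content of the cell and lowers protein synthesis. Both lines are arrested at an early granulocytic stage at which a cell makes the proteins of the primary (azurophil) granules, such as myeloperoxidase and the neutrophil serine proteases. These genes are switched off as a normal granulocyte precursor matures further.

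The libraries matched their labels. RUNX1T1 and CD34 were listed at 0 FPKM in the 4 HL60 libraries, and KIT lay between 0.27 and 0.995 there. In untreated Kasumi-1 RUNX1T1 stood at 17.4 and 20.8 FPKM, CD34 at 61.2 and 58.5, and KIT at 146 and 159. Across the 12239 genes on the log2 scale, the Pearson correlation of the 2 libraries of a group was 0.9955 to 0.997. Of 25 erythroid and megakaryocyte markers, 21 to 23 were below 1 FPKM in both libraries of each group. Among 19 fibroblast, endothelial and epithelial markers only EPCAM was abundant, at a mean of 77.9 FPKM in untreated Kasumi-1. Of 14 B cell markers, IGLL1 led in untreated HL60 with a mean of 115 FPKM.

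The responses of the lines differed at most genes. The interaction had an adjusted p under 0.05 at 3833 genes with the Kasumi-1 change above the HL60 change (31.3% of those tested) and at 4176 with it below (34.1%). The HL60 response was broader: 4497 genes rose (36.7%) and 4711 fell (38.5%) in HL60, against 1339 that rose (10.9%) and 2174 that fell (17.8%) in Kasumi-1. The median absolute change was 0.56 in HL60 and 0.167 in Kasumi-1.

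Most of the 8009 interaction calls were genes called in HL60 alone, 5251 of them or 65.6%. A further 1596 genes (19.9%) changed in the same direction in both lines, by more in HL60. Only 448 (5.59%) were called in Kasumi-1 alone. The opposite genes made up 548 of the 8009 (6.84%). They were 2.32% of the tested genes for the class that rose in HL60 and 2.16% for the class that fell in HL60.

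Among the 2852 genes called in both lines, 2304 (80.8%) moved in the same direction and 548 (19.2%) in opposite ones. Of the 1128 genes that rose in Kasumi-1 and were called in both, 264 (23.4%) fell in HL60. Of the 1724 that fell in Kasumi-1, 284 (16.5%) rose in HL60. Across the tested genes the changes of the lines, which share no library, correlated with a Pearson's r of 0.392 and a Spearman's rho of 0.41. Genes are not independent replicates, so this is a description.

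**Figure D1:**
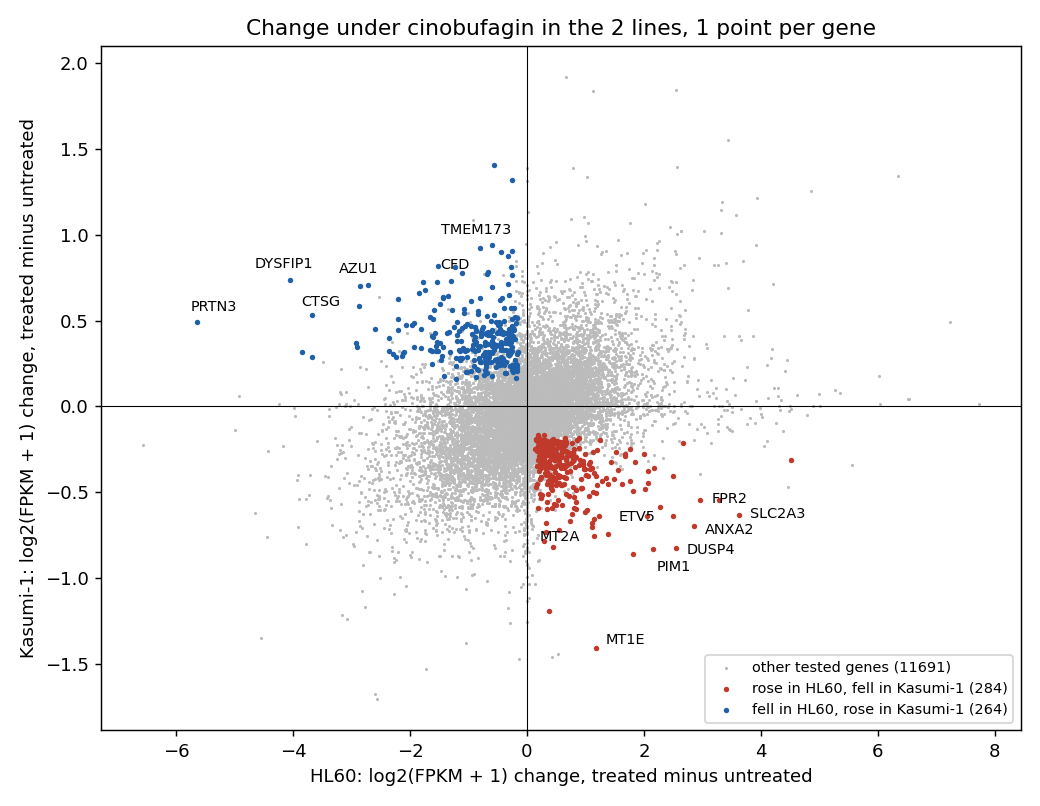
Change under 100 nM cinobufagin in HL60 (x axis) and Kasumi-1 (y axis), each as log2(FPKM + 1) treated minus untreated, with 1 point per tested gene and axes of different length. Red points are the 284 genes that rose in HL60 and fell in Kasumi-1, blue points the 264 that fell in HL60 and rose in Kasumi-1, and grey points the others; the blue points reach much farther along the HL60 axis (PRTN3 at −5.65) than along the Kasumi-1 axis.

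The HL60 change was the larger at 9879 of the 12239 tested genes, a somewhat larger share than in either opposite class. In the class that rose in HL60 the median change was 0.525 in HL60 and −0.326 in Kasumi-1, and the HL60 change was the larger at 211 of 284 genes. In the class that fell in HL60 the medians were −0.702 and 0.37, and the HL60 change was the larger at 203 of 264. The treated libraries lay beyond both untreated ones, with no overlap, in each line for all 548 genes, and at 6756 of the 12239 tested. The calls nearly fix this separation with 2 libraries a group, so it is a description.

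Some genes exchanged their order between the lines. The line with the higher mean was the other one after treatment at 113 of the 284 genes and at 97 of the 264. At 201 and 197 genes the gap between the lines was wider after treatment than before. Over all tested genes the order was exchanged at 3123 and the gap widened at 8048.

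Genes with a change of at least 1.5-fold in each line were counted apart. There were 20 that rose in HL60 and fell in Kasumi-1 (0.163% of the tested genes) and 23 that fell in HL60 and rose in Kasumi-1 (0.188%). With a pseudocount of 0.1 in place of 1 these counts were 57 and 40. At the threshold of the class that rose in HL60, PANX1 was the first outside, with an adjusted p of 0.05019 in Kasumi-1. In the class that fell in HL60, TRAF7 at 0.04999 was the last inside and C8orf44-SGK3 at 0.05046 the first outside.

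The size of the classes rested on the Kasumi-1 libraries, where changes were small. The classes counted 153 and 162 genes without untreated Kasumi-1 replicate 1, 144 and 148 without untreated replicate 2, and 137 and 130 without treated replicate 1, the class that rose in HL60 being named first. The 1.5-fold class that fell in HL60 counted 14 without untreated Kasumi-1 replicate 2, 13 without treated replicate 1 and 35 without treated replicate 2. With the libraries rescaled by the median ratio the split was 213 to 332, and with quantile normalization 232 to 364, in place of 284 to 264. Of the opposite genes, 67 of 284 and 69 of 264 were called opposite under each of 18 alternative settings.

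Genes of the primary granule list were among those that fell in HL60 and rose in Kasumi-1. The list is wider than its name and also holds RNASE2, an eosinophil protein, and CFD, a complement protease. Of 17 tested members of the list, 14 fell and 3 rose in HL60, 9 rose and 1 fell in Kasumi-1, 15 had a called interaction above 0, and 8 were opposite: PRTN3, AZU1, ELANE, CFD, CTSG, MPO, PRSS57 and RNASE2. Over all tested genes 38.5% fell and 36.7% rose in HL60, and 10.9% rose and 17.8% fell in Kasumi-1. A called interaction above 0 was found at 31.3% of all tested genes, and 2.16% were in this opposite class. The list's median change was −1.78 in HL60 and 0.371 in Kasumi-1, against −0.0133 and −0.0377 over all tested genes. In bulk RNA, fewer cells of a type and less RNA per cell cannot be told apart.

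PRTN3 encodes proteinase 3, a serine protease of the azurophil granule. It stood at 548 and 531 FPKM in untreated HL60 and at 9.03 and 10.5 after treatment, and at 2262 and 2144 in untreated Kasumi-1 and 3146 and 3048 after treatment. Treated HL60 was the lowest group and treated Kasumi-1 the highest, with no overlap. The log2 change of −5.65 ± 0.08 (SE) in HL60 had an adjusted p of 6.79e-09 and that of 0.49 ± 0.08 in Kasumi-1 one of 0.00355, which gave an interaction of 6.14 ± 0.11 (adjusted p = 1.19e-07).

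AZU1 encodes azurocidin, a relative of the serine proteases that has lost catalytic activity. Its FPKM were 349 and 314 in untreated HL60, 39.5 and 51.2 in treated HL60, 818 and 741 in untreated Kasumi-1, and 1327 and 1208 in treated Kasumi-1. The groups kept apart as those of PRTN3 did. The changes were −2.85 ± 0.12 and 0.70 ± 0.12, with adjusted p-values of 3.04e-07 and 0.00565.

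PRSS57, a further serine protease of azurophil granules, went from 190 and 182 FPKM to 62.9 and 69 in HL60 and from 785 and 726 to 1181 and 1103 in Kasumi-1. Its Kasumi-1 rise of 0.60 ± 0.07 had an adjusted p of 0.0015. CTSG, cathepsin G, went from 220 and 194 to 14.4 and 16.1 in HL60 and from 236 and 211 to 354 and 295 in Kasumi-1. The untreated levels of CTSG overlapped between the lines, and the treated ones differed by 4.21 ± 0.15 more on the log2 scale (interaction, adjusted p = 5.06e-07).

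MPO, myeloperoxidase, was the most abundant of the 8 in Kasumi-1. It fell from 3285 and 3369 FPKM to 245 and 274 in HL60, and its Kasumi-1 libraries moved from 6013 and 6098 to 7379 and 7381. The Kasumi-1 change of 0.29 ± 0.08 was small, with an adjusted p of 0.0391. ELANE, neutrophil elastase, went from 209 and 203 to 25.4 and 27.4 in HL60 and from 1303 and 1149 to 1666 and 1505 in Kasumi-1, a rise of 0.37 ± 0.08 (adjusted p = 0.0139); it was outside the naming rule and chosen after its values were seen.

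CFD encodes complement factor D, a serine protease of the alternative complement pathway that granulocyte precursors also make. It went from 94.2 and 75.7 FPKM to 34.8 and 32.7 in HL60 and from 71.5 and 54.2 to 113 and 95.5 in Kasumi-1. HL60 was the higher line before treatment and Kasumi-1 after it. RNASE2, the eosinophil-derived neurotoxin, went from 323 and 268 to 81.6 and 88 in HL60 and from 68.3 and 49.5 to 104 and 90 in Kasumi-1, so that HL60, the higher line before treatment, was slightly the lower one after it.

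The Kasumi-1 rise of several of these genes depended on a library. Without untreated Kasumi-1 replicate 2 its adjusted p was 0.0505 for CFD, 0.0592 for CTSG and 0.0744 for ELANE, and without treated replicate 1 it was 0.0593, 0.0504 and 0.0722 for these genes and 0.0651 for RNASE2. The rise of MPO missed the threshold without any 1 of the 8 libraries, with adjusted p-values of 0.0572 to 0.129. PRTN3, AZU1 and PRSS57 were called opposite with each library left out in turn.

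Together the 17 genes took 2.8% and 2.77% of the summed FPKM of the tested genes in untreated HL60 and 0.948% and 1.07% in treated HL60. In Kasumi-1 the share was 1.98% and 2.04% before and 2.53% and 2.62% after treatment. The untreated share was the higher in HL60, and the treated share the higher in Kasumi-1. Not all members followed the pattern. PRG2, an eosinophil granule protein fell in both lines, with log2 changes of −2.57 in HL60 and −1.71 in Kasumi-1. LYZ, lysozyme, rose by 0.65 in HL60 and had a Kasumi-1 change of 0.19 with an adjusted p of 0.126. SRGN, serglycin, the proteoglycan that packs granule proteases, rose in both lines, by 0.28 and 0.90. These 3 genes were chosen after their values were seen.

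Several of the opposite genes are neighbours on a chromosome. In the order of genes of the RefSeq annotation, LPPR3, AZU1, PRTN3, ELANE and CFD follow each other on chromosome 19, and all 5 fell in HL60 and rose in Kasumi-1. LPPR3, a membrane protein of the lipid phosphate phosphatase-related family, went from 48.2 and 44.9 FPKM to 5.56 and 5.07 in HL60 and from 95.9 and 91 to 114 and 125 in Kasumi-1. Its Kasumi-1 rise had an adjusted p of 0.0104, which became 0.0601 without untreated replicate 2 and 0.055 without treated replicate 2. ECRP lies next to RNASE2 on chromosome 14, and reads may be shared between these near-identical copies, so both values are uncertain. Neighbours were sought after the values were seen, and no background of adjacent genes was computed.

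**Figure D2:**
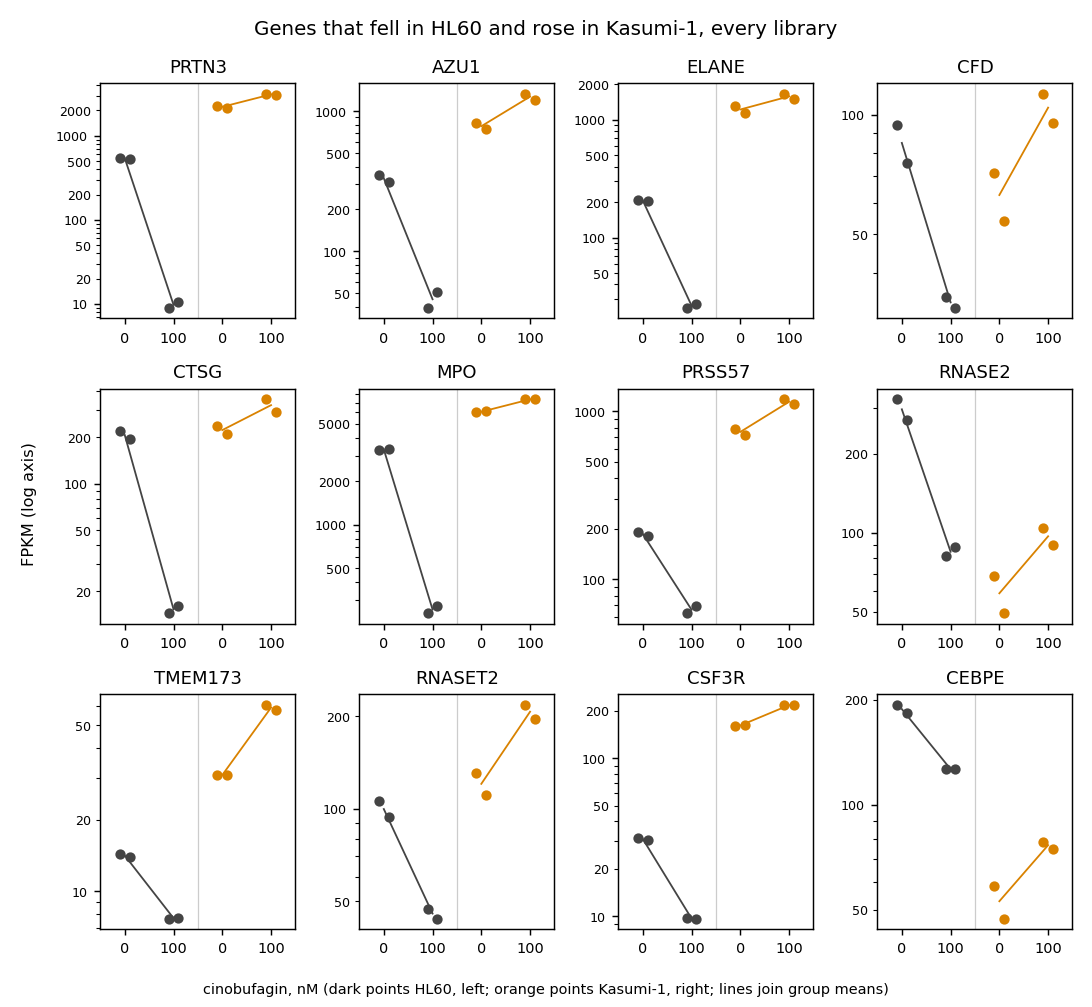
FPKM (log axis) in each of the 8 libraries of 12 genes that fell in HL60 and rose in Kasumi-1, without drug (0) and with 100 nM cinobufagin; dark points are HL60, orange points Kasumi-1, and lines join group means of 2 libraries. PRTN3 ended at 9.03 and 10.5 FPKM in HL60 and 3146 and 3048 in Kasumi-1, while CTSG overlapped between the untreated lines and CEBPE was higher in HL60 throughout.

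Among 40 tested genes of granulocyte and monocyte maturation, CSF3R alone fell in HL60 and rose in Kasumi-1. In the same list 34 rose in HL60 and 5 were opposite the other way. Of all tested genes 36.7% rose in HL60, 2.16% were opposite as CSF3R was and 2.32% the other way. CSF3R, the receptor of granulocyte colony-stimulating factor, went from 31.3 and 30.4 FPKM to 9.69 and 9.66 in HL60 and from 159 and 163 to 218 and 216 in Kasumi-1. The changes were −1.58 ± 0.05 and 0.43 ± 0.05, and the rise had an adjusted p of 0.00114. FLT3, a receptor tyrosine kinase of progenitors, went from 31.2 and 32.8 to 7.92 and 7.4 in HL60 and from 3.97 and 4 to 5.59 and 5.12 in Kasumi-1. Its Kasumi-1 adjusted p of 0.0104 became 0.0552 without treated Kasumi-1 replicate 1.

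CEBPE, the C/EBP family member that drives late granule genes, went from 193 and 183 FPKM to 126 in both libraries in HL60 and from 58.6 and 47.1 to 78.3 and 74.8 in Kasumi-1. The changes of −0.57 ± 0.09 and 0.53 ± 0.09 were nearly equal in size. CEBPD had the larger rise in Kasumi-1, from 29.5 and 28.9 to 54.2 and 54.6, or 0.87 ± 0.12. Its HL60 fall of 0.32 was close to the threshold (adjusted p = 0.0416) and missed it in 6 of 8 fits that left out a library, with adjusted p up to 0.281 without treated HL60 replicate 2.

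MYB and FLT3 were the opposite pair among 24 tested stem and progenitor genes, where 2.16% of all tested genes were in this class. MYB, a transcription factor of progenitors, fell by 1.21 in HL60. Its Kasumi-1 change of 0.16 missed the threshold without any 1 of the 8 libraries (adjusted p = 0.0602 to 0.147). CEBPA, the C/EBP member that starts the granulocytic programme, and GFI1, a transcriptional repressor that acts within that lineage, fell in HL60 alone. Their Kasumi-1 changes were 0.00 (adjusted p = 0.98) and 0.11 (adjusted p = 0.196), and both were chosen after their values were seen. Of 29 tested myeloid transcription factors 9 had a called interaction above 0 (31%) and 13 below (44.8%), and CEBPE and CEBPD were the opposite ones. Over all tested genes these shares were 31.3% above and 34.1% below, so the share above 0 was that of all genes.

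The 1.5-fold class that fell in HL60 held further genes of membranes, vesicles and signalling. TMEM173, which encodes STING, the adaptor that senses cyclic dinucleotides, went from 14.4 and 13.9 FPKM to 7.67 and 7.74 in HL60 and from 30.9 in both libraries to 61 and 57.7 in Kasumi-1. It was among the opposite genes with a larger change in Kasumi-1 (0.92 ± 0.06) than in HL60 (−0.80 ± 0.06). RAB37, a small GTPase of secretory granules, went from 7.58 and 7.73 to 2.01 and 1.95 in HL60 and from 79.9 and 78.4 to 133 and 130 in Kasumi-1. SYTL1, a synaptotagmin-like RAB27 effector of secretion, went from 47.2 and 46.5 to 16.6 and 16.9 and from 11.2 and 9.25 to 16.5 and 16.1.

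SYNGR1, a synaptic vesicle protein, rose by 0.66 ± 0.05 in Kasumi-1 and fell by 1.84 in HL60. CLEC11A, a secreted growth factor of haematopoietic progenitors, stood at 23.2 and 22.4 FPKM in HL60 and fell to 6.61 and 5.57, and went from 613 and 514 to 959 and 841 in Kasumi-1. FES, a tyrosine kinase of myeloid cells, went from 59 and 57.3 to 7.61 and 8.35 in HL60 and from 35.6 and 36.1 to 60.1 and 58.1 in Kasumi-1. For FES the line with the higher level was HL60 before treatment and Kasumi-1 after it. DYSFIP1 had an interaction of 4.78 ± 0.11, the largest of the 1.5-fold class. It fell from 89.5 and 81.9 to 4.53 and 3.98 in HL60 and rose from 2.15 and 2.13 to 4.31 and 4.14 in Kasumi-1.

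These 7 genes were called opposite with each library left out in turn. The vesicle SNARE genes VAMP5 and VAMP8, neighbours on chromosome 2, rose in Kasumi-1 by 0.63 and 0.45, but the rise of VAMP5 had an adjusted p of 0.0814, 0.079 and 0.0915 without untreated replicate 1, untreated replicate 2 and treated replicate 1. That of VAMP8, chosen after its values were seen, had 0.1 and 0.0933 without the latter 2 libraries. The rise of C16orf93, from 2.88 and 2.04 FPKM to 6.23 and 4.07 in Kasumi-1, had an adjusted p of 0.067 without untreated Kasumi-1 replicate 2. C2orf65, from 12.3 and 9.43 FPKM to 20.7 and 17.7 in Kasumi-1 and below 1 in all HL60 libraries, was called with each library left out.

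Lysosomal enzymes were split. Of 59 tested genes of lysosome and autophagy 47 rose and 8 fell in HL60, 27 rose and 2 fell in Kasumi-1, and 6 fell in HL60 and rose in Kasumi-1 (4 with rescaling by the median ratio). Over all tested genes 36.7% rose and 38.5% fell in HL60, and 10.9% rose and 17.8% fell in Kasumi-1. This opposite class held 2.16% of all tested genes. The lysosomal ribonuclease RNASET2, a member of the 1.5-fold class and not of the list, went from 106 and 93.7 FPKM to 47.3 and 43.9 in HL60 and from 130 and 110 to 218 and 196 in Kasumi-1. ASAH1, acid ceramidase, went from 30.4 and 30.2 to 24.7 and 22.8 and from 40.2 and 41 to 55.5 and 54.7. GLB1, the lysosomal beta-galactosidase, changed by −0.28 ± 0.07 in HL60 and 0.57 ± 0.07 in Kasumi-1.

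RNASET2, ASAH1 and GLB1 kept both calls with each library left out. The further opposite members were GM2A, the activator of ganglioside breakdown, GUSB, beta-glucuronidase, HEXA, a subunit of hexosaminidase, and PSAP, the precursor of the saposins. Their Kasumi-1 changes were 0.33, 0.27, 0.41 and 0.23, and each lost a call in some fits that left out 1 library, with a highest Kasumi-1 adjusted p of 0.172 for GM2A and 0.158 for GUSB. The highest HL60 adjusted p was 0.181 for HEXA and 0.154 for PSAP. GUSB, HEXA and PSAP were chosen after their values were seen.

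CD74 and CD4, proteins of immune cells, fell in HL60 and rose in Kasumi-1. CD74, the invariant chain that guides MHC class II proteins, went from 4.37 and 4.74 FPKM to 1.02 and 1.32 in HL60 and from 53.2 and 52.9 to 74.7 and 69 in Kasumi-1. Without treated Kasumi-1 replicate 1 its rise had an adjusted p of 0.0525. CD4, which myeloid cells carry as well as T cells, went from 79 and 82.4 to 16.8 and 19 in HL60 and from 32.4 and 33 to 39.6 and 42 in Kasumi-1. The rise of CD4 lost its call without untreated replicate 1 (adjusted p = 0.0665), untreated replicate 2 (0.0522) or treated replicate 2 (0.0695) of Kasumi-1. Of 21 T and NK cell markers 18 or 19 were below 1 FPKM in both libraries of each group, CD4 and NKG7 being the leading ones.

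Metallothioneins were among the genes that rose in HL60 and fell in Kasumi-1. They are small cysteine-rich proteins that bind zinc and copper, and the factor MTF1 switches their genes on through metal response elements close to the start site. Of 7 tested members, MT1F and MT1H were at 0 in all Kasumi-1 libraries and passed the filter through HL60 alone, so they bear on no difference in response. Of the other 5, 3 rose in HL60 and 5 fell in Kasumi-1, and MT2A, MT1X and MT1E were opposite. Among all tested genes 36.7% rose in HL60, 17.8% fell in Kasumi-1 and 2.32% were in this opposite class. The median change of all 7, with MT1F and MT1H still counted, was 1.11 in HL60 and −0.753 in Kasumi-1. This list was drawn up after the values were seen, and the members have near-identical sequences, so the way reads were divided between them is uncertain.

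The 250 bases before the start of MT2A and MT1X are shown because the family is known for its repeated metal response elements. Capitals mark the element's core, searched as TGCACNC or TGCGCNC on both strands. The sequences are from RefSeq (GRCh38.p14), plus strand, MT2A at chr16:56608334-56608583 and MT1X at chr16:56682220-56682469.
MT2A: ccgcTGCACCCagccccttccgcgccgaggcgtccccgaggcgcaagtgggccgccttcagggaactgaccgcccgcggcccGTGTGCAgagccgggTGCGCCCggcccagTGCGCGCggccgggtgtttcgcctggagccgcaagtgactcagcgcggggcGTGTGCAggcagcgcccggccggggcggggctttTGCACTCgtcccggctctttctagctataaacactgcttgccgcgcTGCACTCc
MT1X: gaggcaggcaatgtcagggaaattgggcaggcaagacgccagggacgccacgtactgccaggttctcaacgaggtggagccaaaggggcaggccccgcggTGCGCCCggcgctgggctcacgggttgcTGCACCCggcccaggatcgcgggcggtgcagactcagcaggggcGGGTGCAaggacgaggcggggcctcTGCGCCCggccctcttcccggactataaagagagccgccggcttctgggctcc

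The core occurred 7 times in the MT2A window and 4 times in that of MT1X. Of 9314 tested genes with a promoter in the table, 33.6% held at least 1 core, 0.537% at least 4 and 0.0429% at least 7. A match is a description of letters and not a site in use.

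MT2A stood at 80.4 and 74 FPKM in untreated HL60 and 185 and 158 after treatment, and at 474 and 364 in untreated Kasumi-1 and 276 and 219 after treatment. Kasumi-1 kept the higher level, and the gap between the lines narrowed. The changes were 1.14 ± 0.15 (adjusted p = 0.000183) and −0.75 ± 0.15 (adjusted p = 0.00934). MT1X went from 22.3 and 18.5 to 49 and 41.6 in HL60 and from 41.9 and 40 to 28 and 22.8 in Kasumi-1, so that the order of the lines was exchanged.

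MT1E changed by 1.19 ± 0.23 in HL60 and −1.41 ± 0.23 in Kasumi-1, the largest fall in Kasumi-1 of the opposite genes. Its untreated HL60 libraries were apart, at 7.48 and 4.09 FPKM, and the treated ones stood at 15.3 and 12.7. In Kasumi-1 it went from 17.8 and 17.7 to 7.13 and 5.17. MT1G and MT1L fell in Kasumi-1 by 1.46 and 1.44, and their HL60 changes of 0.43 and 0.52 did not pass (adjusted p = 0.142 and 0.143). MTF1 and SLC30A1, a zinc exporter that MTF1 also switches on, rose in HL60 by 1.77 and 1.82, with Kasumi-1 changes of −0.05 (adjusted p = 0.693) and −0.04 (adjusted p = 0.794). Both were chosen after their values were seen.

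Some targets and feedback inhibitors of the ERK pathway were also in this class. ERK signalling switches on phosphatases and adaptors that damp it, and ETS factors of the PEA3 family are among its targets. Of 11 tested members of a list drawn up after the values were seen, 8 had a called interaction below 0 (34.1% of all tested genes). A further 2 had one above 0 (31.3% of all), and 4 members were opposite (2.32% of all). The list was drawn up around genes already seen to be opposite, so its counts are a description. DUSP4, a phosphatase of ERK, rose from 0.299 and 0.21 FPKM to 6.37 and 6.24 in HL60 and fell from 2.54 and 2.71 to 1.09 and 0.998 in Kasumi-1. Its changes were 2.54 ± 0.08 and −0.83 ± 0.08.

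DUSP6, the cytoplasmic ERK phosphatase, went from 13.4 and 13.9 FPKM to 19.4 and 21.3 in HL60 and from 48.5 and 49.7 to 28 and 30.8 in Kasumi-1. Here the change in Kasumi-1 (−0.72 ± 0.07) was the larger. SPRED2, an adaptor that holds back RAF activation, went from 10.3 and 11.3 to 18.3 and 18.9 and from 5.37 and 6.01 to 2.94 and 3.49. ETV5, a PEA3 factor, went from 3.75 and 4.36 to 26 and 29.2 and from 1.73 and 1.66 to 0.636 and 0.833.

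The 4 genes were called opposite with each library left out. SPRY2 and SPRY4, inhibitors of receptor tyrosine kinase signalling, rose in HL60 by 1.46 and 2.01, and their Kasumi-1 changes were −0.21 (adjusted p = 0.0842) and −0.14 (adjusted p = 0.216). SPRY1 fell by 0.78 in HL60, so the members differed in direction in HL60.

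**Figure D3:**
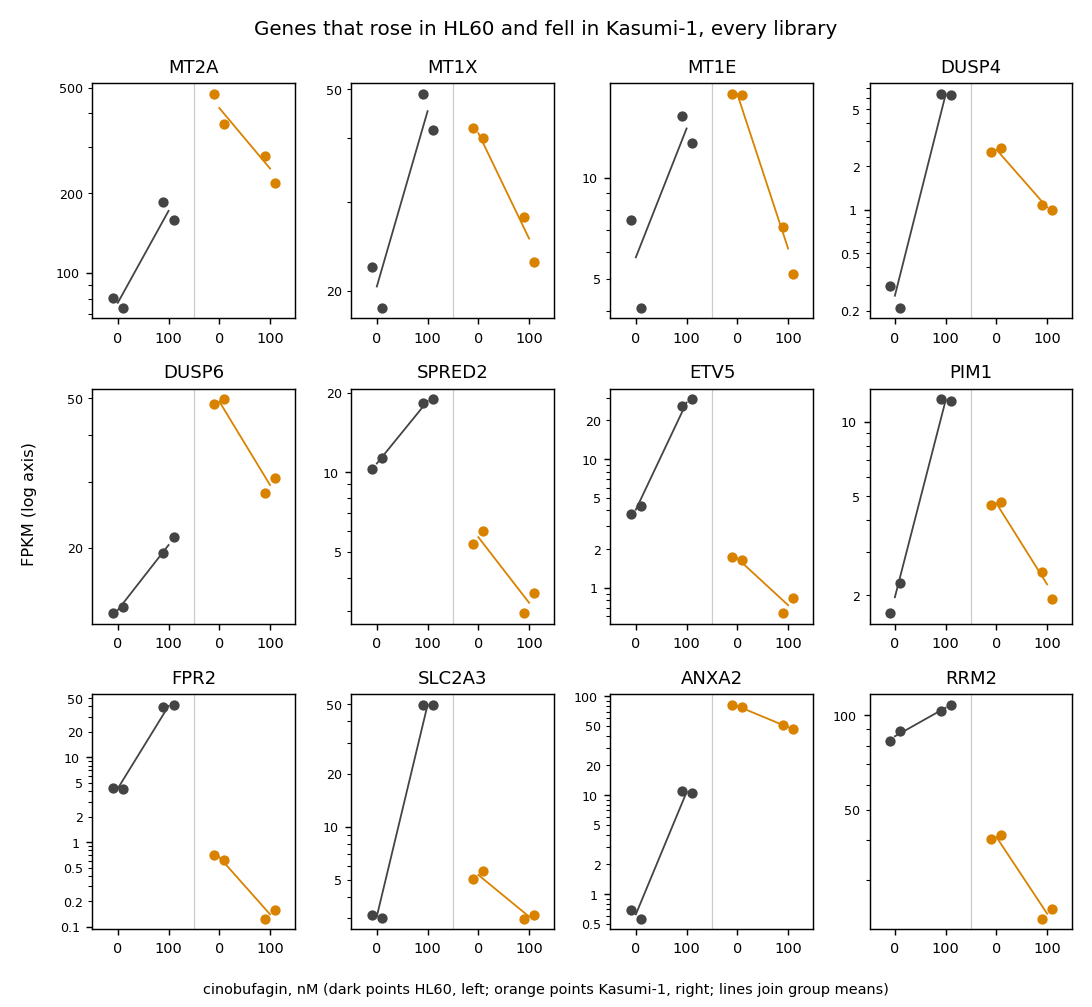
FPKM (log axis) in each of the 8 libraries of 12 genes that rose in HL60 and fell in Kasumi-1, without drug (0) and with 100 nM cinobufagin; dark points are HL60, orange points Kasumi-1, and lines join group means of 2 libraries. MT1X, MT1E, DUSP4, PIM1 and SLC2A3 were lower in HL60 before treatment and higher in HL60 after it, whereas ANXA2 stayed higher in Kasumi-1.

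Other members of the 1.5-fold class had varied roles. PIM1, a serine/threonine kinase that promotes survival downstream of STAT signals, went from 1.69 and 2.23 FPKM to 12.3 and 12.1 in HL60 and from 4.61 and 4.77 to 2.49 and 1.93 in Kasumi-1. SLC2A3, the glucose transporter GLUT3, went from 3.13 and 3.03 to 49.6 and 49.5 in HL60 and from 5.04 and 5.58 to 2.99 and 3.16 in Kasumi-1. Their interactions were −2.99 ± 0.16 and −4.26 ± 0.10. ANXA2, a calcium-dependent membrane-binding protein, rose from 0.683 and 0.564 to 11 and 10.4 in HL60 and fell from 81.8 and 77.2 to 50.9 and 46.4 in Kasumi-1.

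ANXA2P2, a copy of ANXA2, was opposite too, and reads may be shared between them, which makes both values uncertain. The copies of opposite genes named here and below (ANXA2P2, NCF1C and H3F3C) were chosen after their values were seen. S100A10, the protein partner of ANXA2, rose from 15.7 and 14.9 FPKM to 385 and 363 in HL60. In Kasumi-1 it was at 0.409 and 0.186 before treatment and at 0.0836 and 0 after it, and the fall lost its call in 7 of 8 fits that left out a library (adjusted p up to 0.194). PRAME, a tumour antigen, rose by 0.76 and fell by 0.63, and GCLM, the modifier subunit of the enzyme that starts glutathione synthesis, rose by 0.99 and fell by 0.62. CMTM1, a chemokine-like membrane protein, and TSHZ3, a zinc finger factor, fell in Kasumi-1 by 0.70 and 0.64. BATF3, an AP-1 family factor, fell by 0.64 in Kasumi-1, from 1.34 and 0.951 FPKM to 0.275 and 0.481, near the floor. That fall lost its call without untreated Kasumi-1 replicate 1 and without treated replicate 1.

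Genes of mature granulocytes and monocytes and of inflammation rose widely in HL60. Of 40 tested maturation genes 34 rose in HL60 and 31 had an interaction below 0. Of 38 inflammatory genes 35 rose and 34 had an interaction below 0. These shares were 36.7% and 34.1% over all tested genes. In Kasumi-1 the medians of these lists were 0.00 and 0.0162. In the same order, 5 and 3 members rose in HL60 and fell in Kasumi-1, where 2.32% of all tested genes did. Some members, such as TREM1 and CCL3, were below 1 FPKM in untreated HL60 and in all Kasumi-1 libraries. They passed the filter through treated HL60 alone. For such members the filter itself favoured a rise in HL60 and an interaction below 0, so the counts and medians of both lists are descriptions. FPR2, a receptor for formylated peptides and lipoxin, went from 4.35 and 4.23 FPKM to 39 and 41.6 in HL60 and from 0.709 and 0.616 to 0.125 and 0.156 in Kasumi-1. FCGR2A, an activating IgG receptor, went from 6.58 and 7.43 to 32 and 32.8 and from 1.82 and 1.79 to 1.14 and 0.974.

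Both receptors were low in Kasumi-1 and were called opposite with each library left out. SOD2, the mitochondrial superoxide dismutase, changed by 0.34 ± 0.08 in HL60 and by −0.56 ± 0.08 in Kasumi-1, from 36.2 and 41.2 FPKM to 24.4 and 27.4. IL1B, interleukin-1 beta, rose by 3.29 in HL60 and fell by 0.55 in Kasumi-1, where the fall had an adjusted p of 0.0984 without untreated replicate 1 and 0.104 without treated replicate 2. In Kasumi-1 IL1B was near the floor, at 1.03 and 0.57 FPKM before treatment and 0.329 and 0.124 after it. NCF1, a subunit of the phagocyte oxidase, has near-identical copies, of which NCF1C was opposite too. NCF1 was near the floor in Kasumi-1 as well, at 1.07 and 1.08 FPKM before treatment and 0.218 and 0.573 after it. Its Kasumi-1 fall of 0.58 had adjusted p-values of 0.0801, 0.0847 and 0.106 without untreated replicate 1, untreated replicate 2 and treated replicate 1.

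Genes of amino acid supply and tRNA charging were opposite in part. Of 35 tested genes of ATF4 and the integrated stress response, which slows translation and supplies amino acids under stress, 27 rose and 6 fell in HL60, 6 rose and 13 fell in Kasumi-1, and 6 rose in HL60 and fell in Kasumi-1. Of 37 tRNA synthetases 9 rose and 24 fell in HL60, 21 fell and 0 rose in Kasumi-1, and 5 were opposite. Over all tested genes 36.7% rose and 38.5% fell in HL60, and 10.9% rose and 17.8% fell in Kasumi-1. The class that rose in HL60 and fell in Kasumi-1 held 2.32% of all tested genes. MARS, methionyl-tRNA synthetase, went from 75.8 and 76.1 FPKM to 169 and 167 in HL60 and from 55.1 and 53.4 to 45.6 and 44.4 in Kasumi-1. ASNS, asparagine synthetase, went from 58.2 and 56.5 to 79.9 and 79.8 and from 18 and 19.2 to 15.1 in both libraries.

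STC2, a secreted glycoprotein induced by stress, changed by 0.53 ± 0.07 and −0.55 ± 0.07, and DDIT4, an inhibitor of mTORC1, by 0.55 ± 0.08 and −0.44 ± 0.08. These 4 genes were called with each library left out. The synthetases GARS, TARS, YARS and WARS rose in HL60 by 0.77, 0.85, 0.65 and 0.90 and had Kasumi-1 changes between −0.22 and −0.18, whose highest adjusted p-values with 1 library left out were 0.0649, 0.13, 0.145 and 0.213. With rescaling by the median ratio or with quantile normalization, 2 synthetases were opposite in place of 5. ATF4 itself rose by 0.56 in HL60 and had a Kasumi-1 change of −0.27 with an adjusted p of 0.0621. WARS and ATF4 were chosen after their values were seen.

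Genes of DNA replication and the G1/S transition were opposite singly. RRM2, the regulated subunit of ribonucleotide reductase, went from 82.5 and 88.8 FPKM to 103 and 108 in HL60 and from 40.5 and 41.6 to 22.6 and 24.3 in Kasumi-1. It had the larger change in Kasumi-1 (−0.78 ± 0.06 against 0.30 ± 0.06). CCNE2, cyclin E2, went from 8.84 and 8.23 to 11.7 and 11.8 and from 7.82 and 7.65 to 4.59 and 5.04. CDC6, which loads the replicative helicase, changed by 0.30 ± 0.05 and −0.34 ± 0.05.

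RRM2, CCNE2 and CDC6 kept their calls with each library left out. Of 50 tested replication genes 11 rose and 29 fell in HL60, 1 rose and 26 fell in Kasumi-1, and 3 were opposite, all of which rose in HL60. With rescaling by the median ratio 4 rose in Kasumi-1, and 2 further members were opposite the other way. In the fit reported, 36.7% of all tested genes rose and 38.5% fell in HL60, and 10.9% rose and 17.8% fell in Kasumi-1. The class that rose in HL60 and fell in Kasumi-1 held 2.32% of them. H3F3B, which encodes the replication-independent histone H3.3, rose by 0.92 ± 0.06 in HL60 and fell by 0.47 ± 0.06 in Kasumi-1, and its copy H3F3C was opposite too.

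The proteasome list held 6 opposite genes of 43 tested (4 under either rescaling), all of which rose in HL60, against 2.32% of all tested genes. In HL60 12 members rose and 19 fell, where 36.7% and 38.5% of all genes did. In Kasumi-1 22 fell (14 with rescaling by the median ratio), where 17.8% of all genes did in the fit reported. PSMA1, a subunit of the core particle, went from 120 and 125 FPKM to 204 and 206 in HL60 and from 126 and 125 to 99 and 93.9 in Kasumi-1. From near-equal levels the lines thus came to differ by 1.11 ± 0.07 more on the log2 scale. The immunoproteasome subunit PSMB10 was named as a gene of antigen presentation. It fell by 1.05 in HL60, and its Kasumi-1 rise of 0.20 lost its call in 7 of 8 fits that left out a library (adjusted p up to 0.231). Of the splicing factors, SRSF10 and HNRNPM rose in HL60 by 0.50 and 0.59 and fell in Kasumi-1 by 0.42 and 0.26, and they kept their calls with each library left out.

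**Figure D4:**
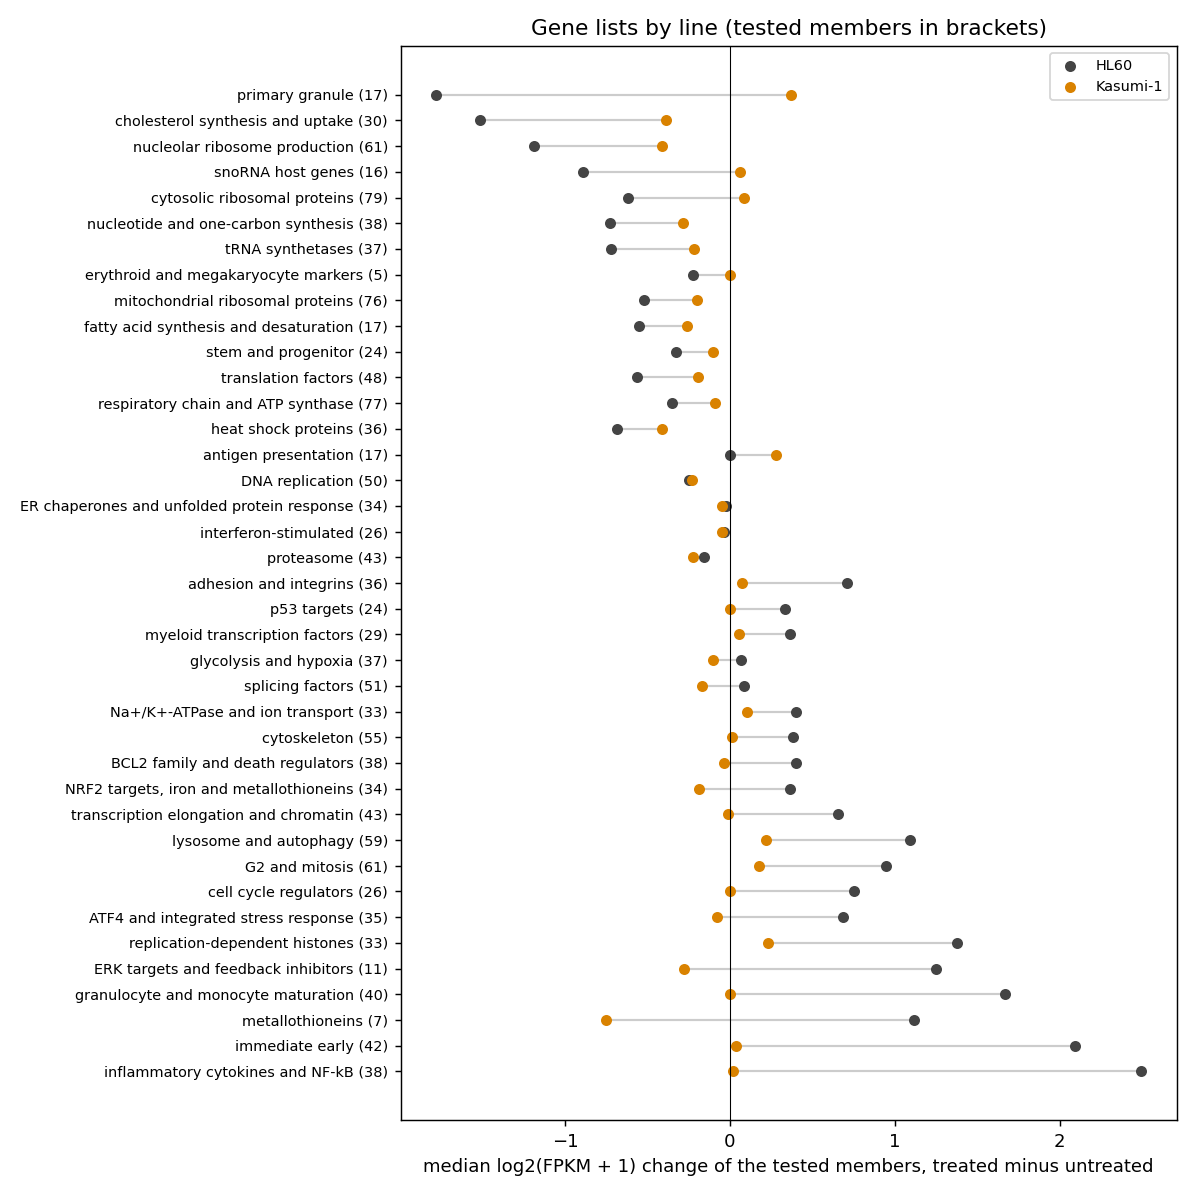
Median log2(FPKM + 1) change, treated minus untreated, of the tested members of each gene list with at least 5 of them, in HL60 (dark) and Kasumi-1 (orange), ordered by the median interaction. The primary granule list has its medians on opposite sides of 0 (−1.78 and 0.371), as have the metallothioneins (1.11 and −0.753) and the ERK targets (1.25 and −0.282), while the inflammatory list has a Kasumi-1 median of 0.0162 beside an HL60 median of 2.5. The metallothionein and ERK lists were drawn up after the values were seen, the ERK list around genes already seen to be opposite, so their medians are descriptions. The metallothionein medians count MT1F and MT1H, which were at 0 in all Kasumi-1 libraries. Some inflammatory genes, such as CCL3, passed the filter through treated HL60 alone.

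Other lists differed between the lines with few or no opposite genes. Of all tested genes, the class that rose in HL60 held 2.32% and the class that fell in HL60 2.16%. In a short list such shares also mean few or none, so these counts are descriptions. All 79 cytosolic ribosomal proteins were tested: 67 fell in HL60 and 0 changed in Kasumi-1, where their median was 0.0828, and 66 had an interaction above 0. With quantile normalization 40 fell and 13 rose in HL60, and the median interaction was 0.23 in place of 0.706. None was opposite in these fits. In the fit reported, 38.5% of all tested genes fell in HL60, 17.8% fell in Kasumi-1 and 31.3% had a called interaction above 0. Of 61 genes of G2 and mitosis 54 rose in HL60 (36.7% of all tested genes) and 22 in Kasumi-1 (10.9% of all), with 0 opposite. The Kasumi-1 count was 34 with rescaling by the median ratio and 33 with quantile normalization. The lists of the respiratory chain (77 tested), of fatty acid synthesis (17), of p53 targets (24) and of snoRNA host genes (16) held 0 opposite genes as well. With rescaling by the median ratio 2 snoRNA host genes were opposite, and with quantile normalization 1 of them and 1 respiratory chain gene. Of 61 nucleolar genes of ribosome production 57 fell in HL60 and 53 in Kasumi-1, and 1 was opposite (RRN3, an initiation factor of RNA polymerase I, whose Kasumi-1 fall had an adjusted p up to 0.0985 with 1 library left out).

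Large interactions arose in several ways. CCL4, a chemokine, had the most negative of the named genes, −7.71 ± 0.32, with FPKM of 2.51 and 1.26 in untreated and 617 and 574 in treated HL60 and a Kasumi-1 change of 0.02 (adjusted p = 0.973). In Kasumi-1 CCL4 was barely detected, at 0.377 and 0 FPKM before treatment and 0.308 and 0.0772 after it. IGLL1, the surrogate light chain of precursor B cells, fell from 125 and 105 FPKM to 0.168 and 0.278 in HL60, with 6.74 and 7.45 in untreated and 6.25 and 5.61 in treated Kasumi-1. Its interaction was 6.34 ± 0.15. CCL3, a further chemokine, rose in both lines, from 0.568 and 0.368 to 221 and 215 in HL60 and by 0.49 in Kasumi-1 (adjusted p = 0.0128), with an interaction of −6.73 ± 0.15. Its Kasumi-1 values were near the floor, at 0.196 and 0 FPKM before treatment and 0.541 in both libraries after it. IL8, a neutrophil chemokine, rose in both lines, by 6.35 and 1.34. TNF, a cytokine, rose by 4.47 in HL60 and had a Kasumi-1 change of −0.47 with an adjusted p of 0.0514, just outside the opposite class. TNF too was near the floor in Kasumi-1, at 1.15 and 0.647 FPKM before treatment and 0.194 and 0.546 after it.

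Of 33 tested genes of the Na+/K+-ATPase and ion transport 3 were opposite, namely FXYD5, CALM3 and CALM2, the last 2 being calmodulin genes. The class that rose in HL60 held 2.32% of all tested genes and the class that fell in HL60 2.16%. The opposite call of CALM2 was lost whichever library was left out, and that of CALM3 was lost with some libraries left out. ATP1B3, a regulatory subunit, rose in both lines, from 91.2 and 85.7 FPKM to 246 and 239 in HL60 and from 92.2 and 83.9 to 121 and 112 in Kasumi-1. FXYD5, a small membrane protein that modulates the pump, went from 190 and 194 to 142 and 152 in HL60 and from 306 and 318 to 402 and 406 in Kasumi-1. The changes were −0.38 ± 0.06 and 0.37 ± 0.06, and both calls held with each library left out.

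MYC, the amplified oncogene of HL60, fell in both lines, with log2 changes of −4.64 and −0.62 and an interaction of 4.02 ± 0.07. MCL1, an inhibitor of apoptosis, rose by 3.08 in HL60, with a Kasumi-1 change of 0.09 (adjusted p = 0.548). CDKN1A, the cell cycle inhibitor p21, rose from 0.617 and 0.733 FPKM to 17.5 in both libraries in HL60, with a Kasumi-1 change of −0.14 (adjusted p = 0.258).

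Common motifs were counted in the promoters of the opposite genes and of all tested genes. In the 250 bases before the start site, on both strands, the E-box CACGTG stood in 8.8% of 216 promoters of the class that rose in HL60, in 8.6% of 186 of the class that fell in HL60 and in 9.23% of 9314 promoters overall. The ETS core GAGGAA, which PU.1 binds, stood in 23.1%, 23.7% and 23.2%. The RUNX core TGTGGT stood in 7.41%, 5.91% and 7.83%, and the AP-1 site TGANTCA in 4.17%, 4.3% and 3.62%. The metal response element core, added after the values were seen, stood in 32.9%, 37.6% and 33.6%. These shares are descriptions, and no match says only that the letters are not in this window.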

How the data were processed

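RNA sequencing was run on poly(A) RNA of 8 libraries, per the labels' protocols (RNeasy extraction, TruSeq Stranded mRNA kit). The authors deposited FPKM values per gene, made, per the submitters' processing notes, with HISAT2 2.1.0, Cufflinks 2.2.1 and bcl2fastq 2.20.0 on build hg19. Neither annotation, strand setting nor depth is known from the sources, so no counting interval could be set and a value listed at 0 was not read as absence. All sample columns were used.

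Of 25593 rows, 13082 were below an FPKM of 1 in 2 libraries, and 215 short RNAs and 57 rows of repeated symbols that passed were left out. The values log2(FPKM + 1) were fitted with limma 3.58.1 in R 4.3.3, with 1 mean per group, 4 residual degrees of freedom and an intensity trend. Adjusted p-values are Benjamini-Hochberg over the 12239 genes of a contrast. The pseudocount understates the change of low genes. A permutation of 2 against 2 libraries cannot go below a two-sided p of 0.33, so none was used. The fit was tested on simulated data.

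The classes and 40 gene lists were chosen with earlier results of these data known, and lists are described by counts and medians, without a test. Named genes are, per opposite class, the 14 with the largest smaller change at a group mean of at least 5 FPKM and no overlap of treated and untreated libraries, the 6 largest interactions per direction under the same limits of level and overlap in each line, up to 4 opposite members and the 2 largest interactions per list, and MYC, MCL1, CDKN1A, ATP1B1, ATP1B3, RUNX1T1, KIT, CD34 and MPO. Other genes are said to be chosen after their values were seen; some genes picked this way are not reported here. RefSeq tables (GRCh38.p14) matched 11448 tested genes, 9314 with a promoter. Because the build differs, they gave only names, gene order and promoter sequence.

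Alternatives were a pseudocount of 0.1, no filter, a filter at an FPKM of 5, rescaling by median ratio, quantile normalization, no intensity trend, a replicate block over all libraries or within a line, short RNAs and repeated symbols kept, each line fitted alone and each library left out.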

Additional observations from a re-analysis of the deposited data

Results flagged for a closer look

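The interaction tests the difference between the lines itself. The genes here were chosen with an adjusted p under 0.05 in that test, so their passing it is no further support. Over all tested genes the interaction was called at 3833 with the Kasumi-1 change above the HL60 change and at 4176 with it below.

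Among genes that rose in HL60 and fell in Kasumi-1, the interaction was −2.59 for MT1E, −1.89 for MT2A and −1.79 for MT1X, the metallothioneins. It was −3.37 for DUSP4, −1.40 for SPRED2 and −3.14 for ETV5, from the list of ERK targets and feedback inhibitors. It was −2.99 for PIM1, −1.82 for CMTM1, −3.55 for ANXA2, −2.69 for BATF3, −1.86 for TSHZ3, −4.26 for SLC2A3, −1.39 for PRAME and −1.61 for GCLM.

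Among genes that fell in HL60 and rose in Kasumi-1, the interaction was 6.14 for PRTN3, 4.21 for CTSG, 3.55 for AZU1, 2.51 for RNASE2 and 2.03 for CFD, genes of the primary granule list. It was 2.26 for RAB37, 2.06 for SYTL1, 2.50 for SYNGR1 and 1.43 for VAMP5, genes of vesicles. It was 1.72 for TMEM173, 1.89 for RNASET2, 4.78 for DYSFIP1, 3.43 for FES, 2.43 for CLEC11A, 2.33 for C16orf93 and 1.45 for C2orf65.

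Among interactions outside the opposite classes, of genes whose treated and untreated libraries did not overlap in either line, IGLL1 stood at 6.34, GAL at 4.86 and DHCR7 at 4.17. CCL3 stood at −6.73, IER3 at −5.85, IL8 at −5.01, TNF at −4.94, GBP2 at −4.93 and HPR at −4.84. Of these, CCL3, IER3, GBP2 and HPR were below 1 FPKM in all Kasumi-1 libraries. CCL4 at −7.71, RGS2 at −5.89 and MZB1 at 4.99 had overlapping Kasumi-1 libraries.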

How the results depend on the processing

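The number of interaction calls was within 1.5 times of the main count under every alternative that gave one, while the opposite classes moved with the Kasumi-1 libraries. In this paragraph the class that rose in HL60 is named first. The classes counted 550 and 447 genes with a replicate block and 569 and 472 with a block within each line; no source says what the numbers mark, so pairing rests on no label, although the deviations of same-numbered libraries correlated between 0.274 and 0.432. Under the block 4222 interaction calls lay above 0 and 4670 below. The classes counted 108 and 115 with each line fitted alone, where 15 of the 1.5-fold class that fell in HL60 were called. With a pseudocount of 0.1 the 1.5-fold classes counted 57 and 40. With a library left out in turn the classes ranged from 137 to 227 and from 130 to 217, the 1.5-fold classes from 15 to 23 and from 13 to 35, and the interaction calls from 3742 to 4158 below and 3416 to 3640 above. The median-ratio and quantile splits were 213 to 332 and 232 to 364 (1.5-fold 16 to 31 and 18 to 34). Of 3574 values of 211 named genes under alternatives, 3540 kept direction and side of the threshold, 25 lost the call and 7 gained it. RUNX1T1, not called in the fit reported, had an interaction between −0.2267 and 0.01911 with a library left out, its sign changing to 0.01911 without untreated Kasumi-1 replicate 2 and to 0.01535 without treated replicate 1. The cause of these differences was not tested. All 111 named opposite genes kept opposite signs with each library left out, and 48 kept all 3 calls. Depth is unknown, so low values have no counting error.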
